A study of Mus musculus with 2 samples.

Results

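The genes described here are the receptors of mouse for the amines dopamine, serotonin, histamine and noradrenaline and for acetylcholine, as measured in sorted type 5 bipolar cells of the retina. They were chosen by gene symbol, as all rows of the expression table named as serotonin (Htr1 to Htr7), dopamine (Drd), alpha or beta adrenergic (Adra, Adrb), histamine (Hrh), muscarinic (Chrm) or nicotinic (Chrn) receptor genes, with opposite-strand transcripts left out. This gave 53 of 32813 gene symbols in 7 families. They are 14 serotonin, 5 dopamine, 6 alpha adrenergic, 3 beta adrenergic and 4 histamine receptor genes, 5 muscarinic receptor genes and 16 nicotinic subunit genes.

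Most of these genes encode receptors that act through G proteins and change the excitability of a cell or its release over seconds. The nicotinic subunits and the Htr3 subunits are the exceptions. They assemble in rings of subunits around a cation channel that opens within milliseconds of binding acetylcholine or serotonin. In the retina dopamine is released by a rare class of amacrine cell and follows light and the daily cycle, acetylcholine is released by starburst amacrine cells, and histamine reaches the retina in fibres that come from the hypothalamus.

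The series holds 1 group of 2 libraries, replicate 1 and replicate 2, of total RNA from cells sorted by fluorescence out of dissociated mouse retina. Type 5 cells are cone bipolar cells of the ON pathway, and the cells came from an Htr3a-GFP mouse line, in which a green fluorescent protein reports activity of the Htr3a promoter. Htr3a is therefore the gene by which the cells were collected, and its level is no independent sign of their identity. No source used here gives strain, age, sex or whether a library pooled animals. The values are transcripts-per-million units (TPM), a measure scaled by transcript length within each library, which puts different genes on 1 scale. Whether different genes were recovered equally well was not tested, so comparisons of levels between genes are descriptions. TPM keeps no read depth. The depth of each library is thus unknown, and no counting interval can be given for any value.

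The libraries carried the labelled cell type with admixture. Of 5 type 5 marker genes other than Htr3a 4 were above 1 TPM by the test described in the next paragraph. So were 8 of 8 ON bipolar genes, 0 of 8 OFF bipolar genes and 1 of 5 rod bipolar genes. Of all genes tested 55.5% were above this line. Rod photoreceptor genes were also present, with 9 of 11 above 1 TPM and a summed level of 1692 TPM in replicate 1 and 1769 TPM in replicate 2. Sums of other lists differed more between the libraries. Cone genes summed to 209 and 57.4 TPM, Muller glia genes to 188 and 403 TPM, and genes of amacrine cells as a class to 60.4 and 95.4 TPM. Above 1 TPM were 3 of 10 cone genes, 6 of 8 Muller glia genes and 2 of 9 amacrine genes. The mitochondrial genome took 17.3% of all TPM in replicate 1 and 24.6% in replicate 2. A listed 0 need not mean absence, because Rps27, which encodes a protein of every ribosome, had 838 TPM in replicate 2 but 0 in replicate 1. In bulk RNA, few cells with much of a transcript and many cells with little of it cannot be told apart.

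A small set of these receptors was expressed well above a low level, and most were at or near 0. Of the 53 genes 8 lay above 1 TPM and 4 of these above 10 TPM (limma on log2(TPM + 1), one-sided, Benjamini-Hochberg adjusted p under 0.05 over 19968 genes). The 4 above 10 TPM were Drd1a, Drd2, Htr3a and Hrh3, and the other 4 were the nicotinic subunit genes Chrna7, Chrnb2, Chrnb1 and Chrna4. The 8 are 22.2% of the 36 members that were above 0 in either library, whereas 55.5% of all genes tested were called above 1 TPM. Above 10 TPM, 11.1% of tested members and 32.4% of all tested genes were called. The other 17 members, or 32.1% of the 53, were listed at 0 in both libraries, against 39.1% of all symbols. The median over the 53 members was 0.30 on the log2(TPM + 1) scale, against 0.75 over all symbols. Over the 36 members above 0 in either library it was 0.83, against 3.22 over all genes above 0 in either. In this fit each gene's variance came from the trend with abundance, so the disagreement of a gene's own 2 libraries did not enter its call. Without a test, 13 of the 36 members above 0 in either library had at least 1 TPM in both, against 67.6% of all genes tested.

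**Figure D1:**
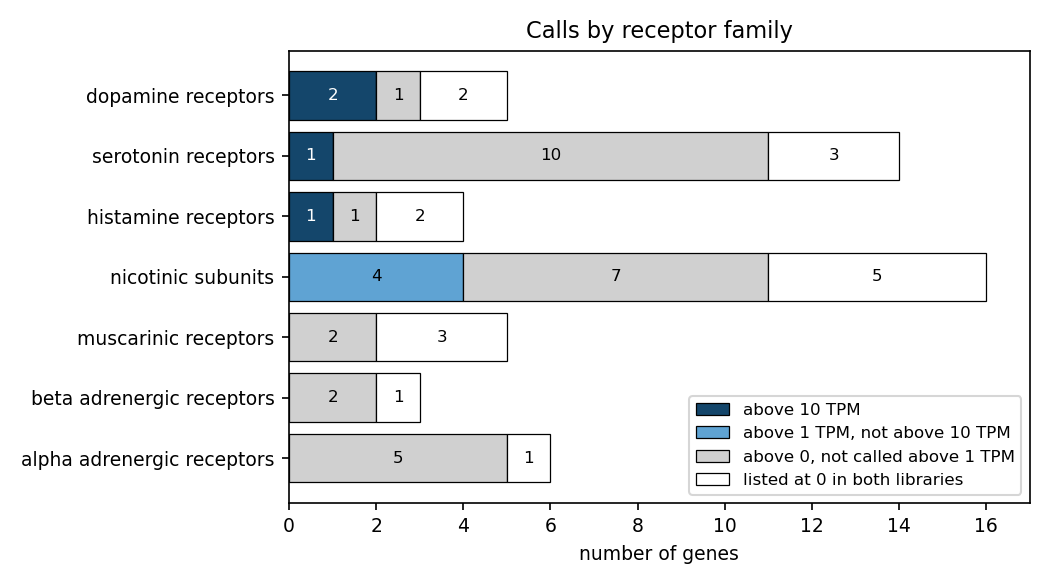
Number of receptor genes of each family (horizontal axis, genes) by their call against lines of 1 TPM and 10 TPM in the 2 libraries. Dopamine receptors have 2 of 5 genes above 10 TPM, nicotinic subunits have 4 of 16 above 1 TPM and none above 10 TPM, and the muscarinic and adrenergic families have none above 1 TPM.

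Dopamine receptors were the most abundant family. They made up 67.7% of the summed TPM of the 53 genes in replicate 1 and 66.4% in replicate 2. Drd1a, the symbol in the table for Drd1, encodes the D1 receptor, which raises cyclic AMP through stimulatory G proteins. It had 281 TPM in replicate 1 and 238 TPM in replicate 2, a mean of 259.6 ± 30.8 TPM (SD, n = 2), and stood at rank 458 among all symbols. Drd2, which encodes the D2 receptor that lowers cyclic AMP through inhibitory G proteins, had 177 and 172 TPM (174 ± 3.14 TPM, SD, n = 2) and stood at rank 806. Both genes were above 10 TPM in the test. Their mean levels exceeded those of 97.7% and 96.0% of the genes above 0, and they were the 2 members with a mean of at least 100 TPM, a level that 8.25% of genes above 0 reached. The Drd1a level was 1.59 times the Drd2 level in replicate 1 and 1.38 times in replicate 2, and the libraries' values of the pair did not overlap.

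Drd1 is on chromosome 13 (54051183 to 54055705, minus strand) and Drd2 on chromosome 9 (49340627 to 49408177, plus strand). GENCODE M21 annotates both as protein-coding (GRCm38, the assembly called mm10 in the processing notes). No other annotated gene overlaps either of them. The sequences before their starts are shown because these are the receptor genes with the highest levels. They are the RefSeq promoter windows on GRCm38.p6, at chr13:54055706-54055908 on the minus strand (203 bases, cut where GENCODE begins the transcript) and at chr9:49340153-49340402 on the plus strand (250 bases), 5′ to 3′, with capitals marking the letters GGGCGG or their reverse complement CCGCCC, the core of a GC box.
Drd1: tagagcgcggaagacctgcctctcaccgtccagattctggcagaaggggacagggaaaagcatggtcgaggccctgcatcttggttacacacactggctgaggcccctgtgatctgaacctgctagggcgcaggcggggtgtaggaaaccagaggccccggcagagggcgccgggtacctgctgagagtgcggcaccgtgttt
Drd2: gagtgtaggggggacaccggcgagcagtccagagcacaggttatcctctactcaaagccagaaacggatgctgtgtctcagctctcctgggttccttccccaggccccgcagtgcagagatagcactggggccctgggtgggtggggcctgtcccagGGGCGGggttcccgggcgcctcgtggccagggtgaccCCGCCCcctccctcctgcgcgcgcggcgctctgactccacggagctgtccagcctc
The Drd2 window held 2 GC box cores and the Drd1 window 0. G and C made up 68.8% of the Drd2 letters and 62.6% of the Drd1 letters. Neither window held TATAAA or its reverse complement TTTATA. In 250 bases before the start, 51.0% of 49 windows of 40 matched receptor genes held a GC box core, against 32.7% of 32851 windows of all genes, and 4.08% held the TATAAA letters, against 12.4%. These matches describe the letters only, and TPM per gene does not say which start was used.

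Drd4, the other D2-like receptor gene of this family with a value above 0, had 8.72 TPM in replicate 2 and a listed 0 in replicate 1. The libraries thus disagreed on whether it was present, and it was not called above 1 TPM. Drd4 is known from photoreceptors. Of the rod genes Gnat1 had 14.3 TPM in replicate 1 and 113 TPM in replicate 2, whereas the 11 rod genes together summed to like levels in both, and the 10 cone genes to less in replicate 2. Their part in the Drd4 value was not tested. Drd3, D2-like, and Drd5, the partner of Drd1 in the D1-like class, were listed at 0 in both libraries.

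Dopaminergic amacrine cells carry Drd2 as an autoreceptor, so their genes were set beside it. Slc6a3, the plasma membrane dopamine transporter that defines them, was listed at 0 in both libraries. Th, tyrosine hydroxylase, had 13.3 TPM in replicate 1 and 2.55 TPM in replicate 2, and Slc18a2, the vesicular amine transporter, had 1.51 and 1.72 TPM. The 3 genes summed to 14.8 and 4.27 TPM in replicates 1 and 2. The part of these cells in the Drd2 value was not tested. Horizontal cells also carry Drd1a. Of the 4 horizontal cell genes 0 were above 1 TPM, and they summed to 2.49 TPM in replicate 1 and 10.4 TPM in replicate 2. Calb1 made up most of the second sum (0.51 and 9.28 TPM), while Lhx1 had 0.79 and 0.23 TPM and Onecut2 1.07 and 0.46 TPM. Their part in the Drd1a value was not tested.

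**Figure D2:**
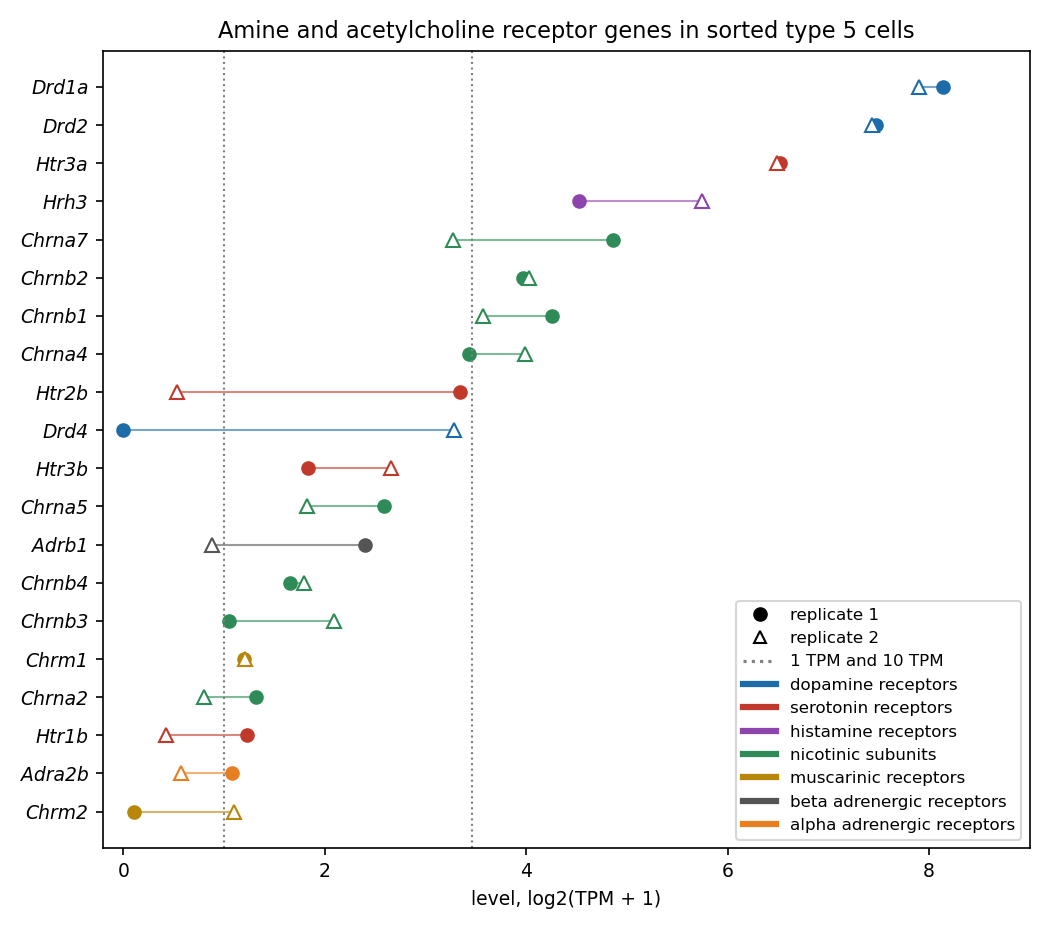
Level of the 20 receptor genes given in full, as log2(TPM + 1) on the horizontal axis, in replicate 1 (filled circles) and replicate 2 (open triangles), coloured by family and joined by a line per gene. Drd1a, Drd2 and Htr3a stand apart at the top with close libraries, and Htr2b and Drd4 have the longest lines.

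Serotonin receptors were 1 abundant channel subunit and 13 genes at low levels. Htr3a, the subunit of the 5-HT3 channel on whose promoter the cells were sorted, had 90.9 TPM in replicate 1 and 88.8 TPM in replicate 2 (89.9 ± 1.48 TPM, SD, n = 2) and was above 10 TPM. The sort fixes that direction, and its level is given as a description. Drd2 stood at 1.94 times Htr3a in both libraries and Drd1a at 3.09 and 2.68 times, so both dopamine receptor transcripts exceeded the transcript used for the sort. Htr3b, which joins Htr3a in mixed channels, had 2.57 and 5.31 TPM (3.94 ± 1.94 TPM, SD, n = 2) and was not called above 1 TPM. Htr3a exceeded Htr3b 35.4-fold in replicate 1 and 16.7-fold in replicate 2. On chromosome 9 Htr3a lies from 48899213 to 48911099, and Htr3b lies 23.9 kb away, on the same minus strand.

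Of the serotonin receptors that act through G proteins, 0 of 12 were above 1 TPM. Htr2b, coupled to Gq, had 9.17 TPM in replicate 1 and 0.45 TPM in replicate 2, a 20.4-fold gap. Its value thus rests on 1 library. Its exons share 252 bases with Psmd1, a proteasome subunit gene on the opposite strand, which had 65.0 and 61.6 TPM. No source used here says whether counting used strand, so reads of the shared bases may not be told apart. Htr1b, an inhibitory receptor often found on nerve endings, had 1.34 and 0.34 TPM. Of the 10 others, 7 were above 0 in either library, with means between 0.01 and 0.435 TPM (Htr7 highest, then Htr2a, Htr2c, Htr5b and Htr6, with Htr1f and Htr5a lowest), and Htr1a, Htr1d and Htr4 were listed at 0 in both.

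Histamine receptors were represented by Hrh3, the H3 receptor, which couples to inhibitory G proteins and restrains transmitter release where it is known in the brain. Hrh3 had 22.0 TPM in replicate 1 and 52.6 TPM in replicate 2 (37.3 ± 21.6 TPM, SD, n = 2) and was above 10 TPM. It was high in both libraries and 2.39 times as high in replicate 2. With all 32813 symbols tested the call above 10 TPM was lost and that above 1 TPM was kept. Hrh3 is on chromosome 2 (180099465 to 180104488, minus strand), and 349 of its exonic bases lie opposite Gm17180, an antisense gene with 1.14 TPM in replicate 1 and 0 in replicate 2. Hrh2 was listed at 0 and at 0.32 TPM, and Hrh1, which couples to Gq, and Hrh4, known from blood cells, were listed at 0 in both libraries.

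Nicotinic subunits, the largest family, had the most genes called, with 4 of 16 above 1 TPM and 0 above 10 TPM. Their share called above 1 TPM was below that of all symbols (33.8%) and of the dopamine receptor genes (2 of 5). Without a test, 7 of the 16 reached 1 TPM in each library. Chrnb2 had 14.6 TPM in replicate 1 and 15.3 TPM in replicate 2 (15.0 ± 0.47 TPM, SD, n = 2) and Chrna4 had 9.79 and 14.9 TPM (12.3 ± 3.61 TPM). These subunits together form the most common nicotinic channel of the brain. Chrnb2 stood at 1.49 and 1.03 times Chrna4, and the ranges of the pair overlapped. Adar, an RNA-editing enzyme gene on the opposite strand, shares 1365 exonic bases, or 16.3%, with Chrnb2, and had 37.2 TPM in replicate 1 and 7.58 TPM in replicate 2. Chrna5, an accessory subunit that joins channels of these kinds, had 5.03 and 2.54 TPM and was not called.

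Chrna7, whose product forms channels on its own, had 28.1 TPM in replicate 1 and 8.66 TPM in replicate 2 (18.4 ± 13.7 TPM, SD, n = 2). It was above 1 TPM, and it was the highest nicotinic gene in replicate 1 and below Chrnb2, Chrna4 and Chrnb1 in replicate 2. Chrna7 is also known from amacrine and ganglion cells. The 9 amacrine genes summed to 60.4 TPM in replicate 1 and 95.4 TPM in replicate 2, with 2 of 9 above 1 TPM and Calb2 at 0 in both libraries. The 2 called genes differed in opposite directions, with Slc6a9 at 36.6 and 3.12 TPM and Pax6 at 22.3 and 46.5 TPM. Slc6a9 was the only amacrine gene lower in replicate 2. All the others above 0 were higher there, among them Gad1 at 0.06 and 10.4 TPM and Gad2 at 0.11 and 9.94 TPM. The 8 ganglion cell genes summed to 31.8 and 73.0 TPM, with 1 of 8 above 1 TPM and Pou4f2, Sncg and Nefm at 0 in both. Their part in the Chrna7 value was not tested.

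Chrnb1, the beta subunit of the muscle receptor, had 18.1 TPM in replicate 1 and 10.9 TPM in replicate 2 (14.5 ± 5.11 TPM, SD, n = 2) and was above 1 TPM. Its partners at the muscle endplate were near or at 0. Chrna1 had 0.23 and 0.62 TPM, Chrnd was listed at 0 and at 0.08 TPM, and Chrne and Chrng were listed at 0 in both libraries. Subunits of the ganglionic receptor were unequal, with Chrnb4 at 2.16 and 2.48 TPM (2.32 ± 0.23 TPM, SD, n = 2) and Chrna3 listed at 0 and at 0.14 TPM. Chrnb3, found with Chrna6 in dopamine neurons and retinal ganglion cells, had 1.07 and 3.27 TPM, while Chrna6 was listed at 0 in both libraries. Chrna2 had 1.49 and 0.74 TPM. The hair cell pair Chrna9 and Chrna10 was listed at 0 in both.

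The called nicotinic genes lie apart in the genome. Chrna7 is on chromosome 7 from 63098692 to 63212569, Chrnb2 on chromosome 3 from 89746195 to 89764632, Chrnb1 on chromosome 11 from 69784036 to 69795943 and Chrna4 on chromosome 2 from 181018380 to 181043546, each on the minus strand (GENCODE M21, GRCm38).

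Muscarinic receptors, the G protein-coupled receptors for acetylcholine, had 0 of 5 genes above 1 TPM. Chrm1 had 1.30 TPM in replicate 1 and 1.31 TPM in replicate 2, close in both libraries and just over the line. Chrm2, which marks a subset of type 5 cells, had 0.08 and 1.15 TPM. It shares 142 exonic bases with 9330158H04Rik, a long noncoding gene on the opposite strand at 7.97 and 4.62 TPM. Chrm3, Chrm4 and Chrm5 were listed at 0 in both libraries.

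Adrenergic receptors were low throughout, with 0 of 6 alpha and 0 of 3 beta receptor genes above 1 TPM. Adrb1, the stimulatory beta-1 receptor of heart and brain, had 4.28 TPM in replicate 1 and 0.84 TPM in replicate 2 (2.56 ± 2.43 TPM, SD, n = 2), so it exceeded 1 TPM in 1 library. Adra2b had 1.12 and 0.49 TPM. Adra1a, Adra2c, Adra1b and Adra2a had means between 0.06 and 0.605 TPM, the highest single value being 0.97 TPM of Adra2c in replicate 1. Adrb3 had 0.23 TPM in replicate 1 and 0 in replicate 2, and Adra1d was listed at 0 in both libraries.

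At the top of the order of levels neighbouring genes were apart by more than their spread between libraries, and below it most were not. Drd1a, Drd2, Htr3a and Hrh3 followed each other with no overlap of the libraries' values between neighbours. From Hrh3 down to Chrna4 every pair of neighbours overlapped, in the order Hrh3, Chrna7, Chrnb2, Chrnb1, Chrna4. Chrna4 lay above the next gene, Htr2b, by a narrow margin (lowest value 9.79 TPM against a highest of 9.17 TPM), and all 11 later pairs of neighbours, down to Chrm2, overlapped.

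**Figure D3:**
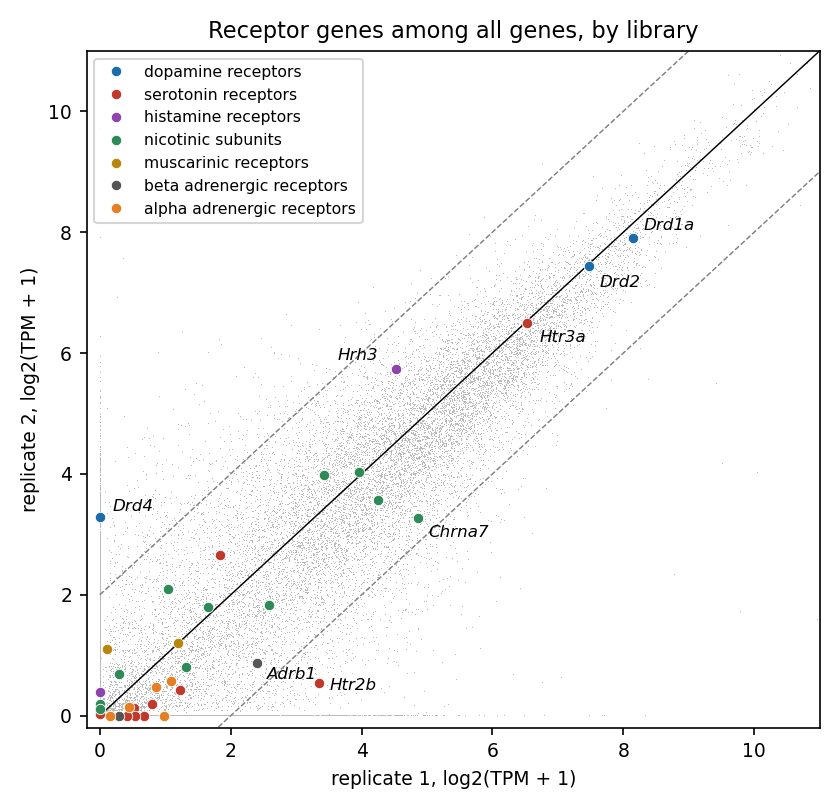
Replicate 2 against replicate 1, both as log2(TPM + 1), for the 36 receptor genes above 0 (coloured by family) and all genes above 0 (grey, shown up to 11 on each axis). The solid line marks equal values and the dashed lines a 4-fold difference, which 2 receptor genes, Drd4 and Htr2b, exceed.

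Between the libraries 2 of the 36 members above 0 differed by over 4-fold on the log2(TPM + 1) scale, namely Htr2b and Drd4, against 10.5% of all genes above 0. On this scale a gene near 0 in both libraries cannot differ by over 4-fold, and many members were near 0. With a mean of at least 1 TPM the shares were close, at 11.8% of 17 members and 13.1% of all genes at that level. The log2 difference, replicate 2 minus replicate 1, was -2.81 for Htr2b and 3.28 for Drd4. Among the 8 members with a mean of at least 10 TPM, 6 were within 2-fold, or 75.0%, against 75.2% of all genes at that level. The exceptions were Hrh3 at 1.22 and Chrna7 at -1.59 log2 units. The 28 members above 0 that were not called above 1 TPM had no shared direction, with 16 lower and 12 higher in replicate 2, and a 0 stood in replicate 1 for 6 of them and in replicate 2 for another 6.

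Genes that act with these receptors were examined from 7 lists of enzymes, transporters, chaperones and signalling partners. Of 47 such genes in the table, 24 were above 1 TPM, 60.0% of the 40 above 0, near the 55.5% of all genes tested. The counts were 5 of 8 chaperones and modulators, 4 of 7 receptor kinases and arrestins, 9 of 11 G alpha subunits, 4 of 11 catecholamine genes, 2 of 5 serotonin genes, 2 of 4 acetylcholine genes and 0 of 3 histamine genes.

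Of the 8 partners of the channel-forming receptors, 5 were above 1 TPM and 4 of these above 10 TPM. Ric3, a chaperone of nicotinic and 5-HT3 channels, had 126 TPM in replicate 1 and 41.4 TPM in replicate 2, and Tmem35, whose product is a nicotinic chaperone also called NACHO, had 65.8 and 64.2 TPM (65.0 ± 1.16 TPM, SD, n = 2). Lynx1 and Ly6h, membrane proteins that bind nicotinic receptors and limit their function or assembly, had 44.5 and 86.8 TPM and 38.4 and 48.1 TPM. Lypd6b followed at 14.1 and 9.64 TPM. Lypd1, Ly6e and Lypd6 were not called, and Lypd6 was listed at 0 and at 0.06 TPM.

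Both G protein routes of the dopamine receptors were represented. Gnas, the stimulatory subunit used by the D1 receptor, had 121 TPM in replicate 1 and 201 TPM in replicate 2, and Gnal, its olfactory and striatal relative, had 11.7 and 18.3 TPM. Of the inhibitory subunits used by D2 and H3 receptors, Gnao1, which also serves the glutamate receptor of ON bipolar cells, had 1494 and 1754 TPM, Gnai3 53.7 and 39.2 TPM, Gnai1 14.3 and 36.0 TPM and Gnai2 11.3 and 18.9 TPM. Gnaz was called on 2.42 and 17.6 TPM. Gnaq had 179 and 154 TPM, and Gna11 5.24 and 12.02 TPM. Gna14 and Gna15 were not called. Among the kinases that phosphorylate active receptors, Grk4 was highest at 170 and 92.4 TPM, ahead of Adrbk1, now called Grk2, at 11.2 and 9.92 TPM, and the values of the pair did not overlap. Arrb2 and Arrb1, the beta-arrestins, had 38.3 and 31.5 TPM and 19.7 and 12.4 TPM. Grk5, Grk6 and Adrbk2 were not called.

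Enzymes that break the transmitters down were called above 1 TPM in part, 55.5% of all genes tested being called. Most genes that make or carry the transmitters were not called. Maoa, a monoamine oxidase, had 17.7 TPM in replicate 1 and 11.3 TPM in replicate 2, with Maob at 0 in both libraries. Ache and Bche, which split choline esters, had 22.6 and 11.4 TPM and 13.2 and 11.3 TPM. Maoa, Ache and Bche were above 1 TPM. Hnmt, which methylates histamine, had 4.93 and 5.77 TPM and was not called. Chat, the enzyme that makes acetylcholine, the choline transporter Slc5a7, the serotonin transporter Slc6a4 and Slc6a3 were listed at 0 in both libraries. The exceptions were Ddc, the decarboxylase shared by dopamine and serotonin synthesis, at 6.65 and 6.48 TPM and Th at 13.3 and 2.55 TPM, both above 1 TPM. Dbh, the next enzyme toward noradrenaline, had 6.10 TPM in replicate 1 and 0 in replicate 2. Tph1, which makes the precursor of serotonin, had 1.19 and 1.48 TPM, Tph2 was listed at 0 and at 0.17 TPM, and Hdc, which makes histamine, had 0.74 and 1.66 TPM. None of these last 4 was called.

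**Figure D4:**
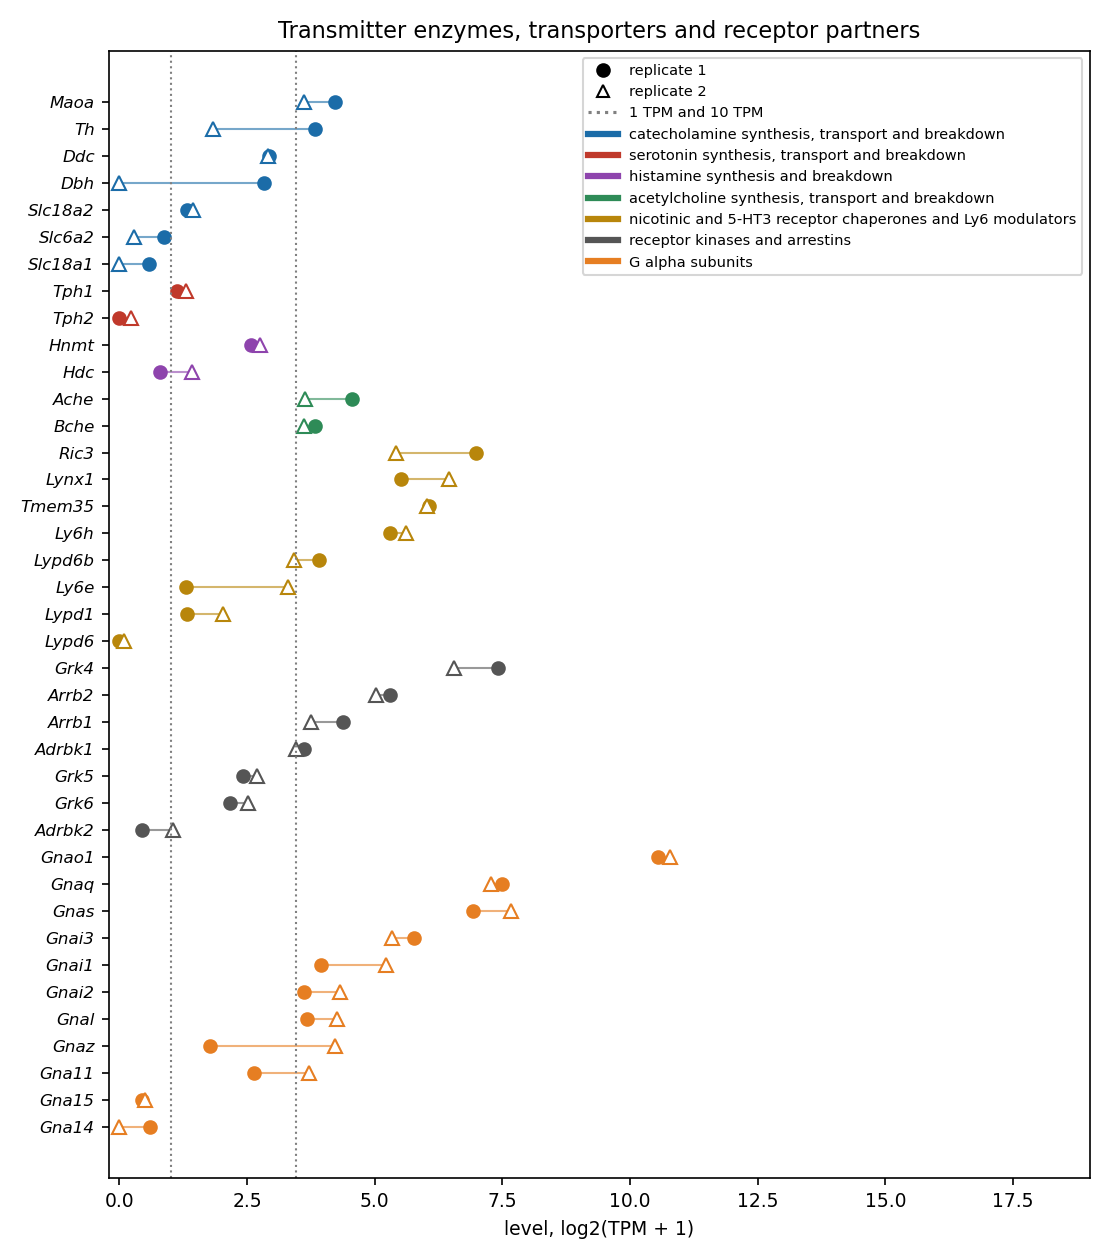
Level of 39 of the 40 genes above 0 of the 7 lists of enzymes, transporters and receptor partners (the other is not reported here), as log2(TPM + 1) on the horizontal axis, in replicate 1 (filled circles) and replicate 2 (open triangles), coloured by list, with genes of 2 lists coloured as catecholamine genes. Gnao1 stands highest at 1494 and 1754 TPM, and Dbh, Th and Gnaz have long lines between the libraries.

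The receptors of the fast transmitters of the retina were counted in the same fit. Of the 53 amine and acetylcholine receptor genes 15.1% were above 1 TPM, against 13 of 26 GABA and glycine receptor subunits (50%), 9 of 26 glutamate receptor subunits (34.6%) and 33.8% of all symbols. These shares count genes listed at 0 as not called. Above 10 TPM the shares were 7.55%, 26.9% and 23.1%, and 19.7% of all symbols. The difference between these families was not tested. Drd1a, at 259.6 TPM, stood below Gabrr2 at 787 ± 73.9 TPM, Grm6 at 726 ± 265 TPM and Gabrr1 at 384 ± 46.7 TPM (SD, n = 2), and its library values overlapped with none of theirs. It stood above the AMPA receptor subunit gene Gria2 at 169 ± 8.08 TPM, and Drd2 overlapped with Gria2 (175 and 163 TPM).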

How the data were processed

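RNA was measured in 2 libraries of 1 group. Per the labels' protocols, retina was dissociated, cells were sorted by FACS into RNAlater, and the NuGEN Ovation RNA-seq system V2 served for library preparation. The authors deposited 1 table of TPM per gene symbol. RSEM 1.2.28, TopHat2 2.0.10 and mm10 stand in the submitters' processing notes. No source used here gives the annotation, filters or use of strand. The column of replicate 1 misspells the gene in its name and was matched by its replicate number. The columns sum to 999999.75 and 999999.66, and depth is unknown.

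Values were used as deposited and transformed to log2(TPM + 1), so the pseudocount was 1. Levels above 1 TPM and 10 TPM were tested with limma 3.58.1 in R 4.3.3 (intercept only, variance trend, one-sided, Benjamini-Hochberg over the 19968 genes above 0 in either library, threshold 0.05). The estimated prior was infinite, so single adjusted p-values are not printed. The fit was tested on simulated data. Tables and plots used Python 3.11.15, pandas 2.3.3, numpy 2.4.6 and matplotlib 3.10.9. Gene positions are from GENCODE M21 (53 of 53 members matched, Drd1a as Drd1), and promoter windows from RefSeq (40 matched). The design text calls the replicates biological without naming animals. Calls in the main fit thus rest only on the spread between these libraries, taken from genes of like abundance and not from each gene's own values.

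Members at 1 TPM or more in either library, and the highest of each family, are given in full. Of each partner list the called genes and up to 3 more are named, and others are named beyond this rule. Slc18a3 was not analysed here. A few genes named by the rule are left unreported. The members and lists were chosen with earlier results of these data known. Alternatives were other pseudocounts, no trend, a robust prior, other filters, TPM without the mitochondrial genome, and each library alone.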

Additional observations from a re-analysis of the deposited data

How the results depend on the processing

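The 8 receptor genes called above 1 TPM were called under all 7 other limma settings, which gave 8 to 10 calls. Without the variance trend Htr3b and Chrna5 were added. Above 10 TPM 4 genes were called, and 3 with every symbol tested, where Hrh3 was lost. Counts in a single library, at or over the line and with no test, were 15 to 18 members at 1 TPM (15 without replicate 1, 18 without replicate 2) and 7 at 10 TPM in each library. The count of members differing over 4-fold between the libraries was 2, but 9 with a pseudocount of 0.1, which weighs values under 1 TPM more. The partner genes above 1 TPM numbered 20 to 27 across the limma settings, against 24. TPM rescaled without the mitochondrial genome was 1.21 times higher in replicate 1 and 1.33 times in replicate 2. With it, 6 of 20 member means moved by more than their SD and no call of a receptor gene changed. The partner genes above 1 TPM then numbered 25. Levels of 1 to 10 TPM are limited by the spread between 2 libraries. No paired analysis was possible because the series has 1 group.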

Other observations

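Receptor genes that lie next to each other in the genome were not at like levels (GENCODE M21, GRCm38). On chromosome 9, Chrna5, Chrna3 and Chrnb4 lie in 1 cluster, with 2.33 kb between Chrna5 and Chrna3 and 1.59 kb between Chrna3 and Chrnb4. Chrna5 had 5.03 and 2.54 TPM in replicates 1 and 2 and Chrnb4 2.16 and 2.48 TPM, while Chrna3, between them, had 0 and 0.14 TPM. On chromosome 8, Chrnb3 had 1.07 and 3.27 TPM and Chrna6, 3.48 kb away, was listed at 0 in both libraries. Drd2 lies 376 kb from Htr3b and 430 kb from Htr3a on chromosome 9, and Htr3b, the gene between the other two, was the lowest of the 3 in both libraries.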
